A study of Mus musculus with 28 samples.

Results

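The regions described here are those whose nearest gene in the authors' annotation was Sema4b or Plxnc1, in a deposited table of H3K27me3 ChIP-seq counts from mouse microglia. There were 9 such regions among 26326, of which 2 lay nearest to Sema4b and 7 nearest to Plxnc1. The pair of genes was chosen with values of these comparisons known, so the differences at the 9 regions are given as descriptions, with no test. H3K27me3, trimethylated lysine 27 of histone H3, is the mark that Polycomb repressive complex 2 deposits at silenced genes. ChIP-seq counts the DNA fragments that come down with an antibody against it.

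All microglia came from brains of adult male wild-type C57BL/6 mice, with the brains of 2 to 6 mice pooled per sort. Sorted from mice on a diet with 0.2% cuprizone for 4 weeks, a copper chelator under which oligodendrocytes die and myelin is lost, were the CD229+CD11c+ cells, the CD229+CD11c- cells and the CD229-CD11c- cells. CD229 is a SLAM family receptor of immune cells, and CD11c is an integrin that activated microglia can carry. Basal microglia, the reference, were sorted as CD44Low CD45Low CD11bLow cells from mice on a regular diet, so diet and gate differed together and cannot be told apart in comparisons with them. Counts were deposited for 12 of the 14 H3K27me3 libraries, 3 in each of the 4 groups, and nothing in the labels says that replicates were separate animals, so p-values measure the spread between these libraries.

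Semaphorins are secreted or membrane-bound guidance proteins that share a Sema domain, and plexins are their main receptors. Sema4b encodes a transmembrane semaphorin of class 4 that is known from neurons, where it takes part in synapse formation. Plxnc1 encodes plexin C1, a receptor of the GPI-anchored semaphorin Sema7A that is known from leukocytes, including dendritic cells. Neither the labels nor the files state that the pair act on each other. Where H3K27me3 covers the CpG-rich start of a gene, the gene is usually silent, though the mark alone gives no transcript level.

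The sequences before the start sites are shown because all 3 are rich in CpG dinucleotides, the kind of DNA over which Polycomb marks usually lie, and because 2 of the 3 lie inside a region described here. They are RefSeq sequences of GRCm38.p6, written 5′ to 3′ on the gene's strand, with CpG dinucleotides in capitals. Sema4b has 2 start sites in RefSeq, and for each the 250 bases before it are printed. For Plxnc1 only the 80 bases beyond the outermost limit of the gene are printed.
Sema4b, first start site, chr7:80186620-80186869, plus strand: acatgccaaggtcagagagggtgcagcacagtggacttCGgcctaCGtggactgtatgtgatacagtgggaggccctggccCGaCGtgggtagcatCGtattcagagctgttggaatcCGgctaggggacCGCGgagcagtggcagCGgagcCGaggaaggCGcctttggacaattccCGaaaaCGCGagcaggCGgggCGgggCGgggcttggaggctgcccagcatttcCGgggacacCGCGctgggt
Sema4b, second start site, chr7:80198338-80198587, plus strand: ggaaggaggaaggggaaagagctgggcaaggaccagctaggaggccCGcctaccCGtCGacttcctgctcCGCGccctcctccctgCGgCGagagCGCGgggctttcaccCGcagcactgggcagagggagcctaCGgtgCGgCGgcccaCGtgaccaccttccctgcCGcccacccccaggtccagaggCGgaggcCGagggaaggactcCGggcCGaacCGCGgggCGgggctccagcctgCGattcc
Plxnc1, chr10:94945016-94945095, minus strand: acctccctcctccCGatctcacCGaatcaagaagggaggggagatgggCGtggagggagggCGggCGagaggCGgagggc
The 250 bases before the first Sema4b start site held 20 CpG dinucleotides at a GC content of 64.4%, and 17.9% of 32851 mouse promoters held at least as many. The second Sema4b start site had 23 at 72.4% GC, a number reached by 13.3% of promoters. The 250 bases before the Plxnc1 start site had 22 at 68.8% GC, a number reached by 14.8%. The median promoter held 6 CpG dinucleotides at 52.4% GC. The first Sema4b window and the Plxnc1 window lay inside H3K27me3 regions. The second Sema4b start site lay in none, 7.17 kb beyond the end of the nearest region. The regions were called in basal microglia, so the mark at this start site was not counted in the cuprizone subsets.

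Both genes were marked across long stretches of chromatin. The broader Sema4b region spanned 22.1 kb, at chr7:80169322-80191413 in mm10, from 17.5 kb before to 4.54 kb after the first start site. The gene itself, on the plus strand, is 39.8 kb long. Because the centre of this region lies 6.47 kb upstream, the authors' annotation calls it intergenic, although it covers the start site. The other Sema4b region, of 7.33 kb at chr7:80159841-80167167, lay 19.7 to 27 kb upstream, in no annotated gene, and 2.15 kb separated the pair. The Plxnc1 start-site region covered 7.36 kb at chr10:94939988-94947346, and its centre lay 1.18 kb inside the gene, in exon 1 of 31. Another Plxnc1 region lay in intron 21 of 30, 124 kb inside this 154 kb gene, and 5 lay in no annotated gene at 10.9, 32.8, 46.0, 80.6 and 96.1 kb upstream. The 7 Plxnc1 regions were 3.65 to 24.7 kb long, spanned 223 kb and covered 62.4 kb of it. Of 10625 genes that were nearest to a region, 52.0% had 2 or more and 6.2% had 7 or more.

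**Figure D1:**
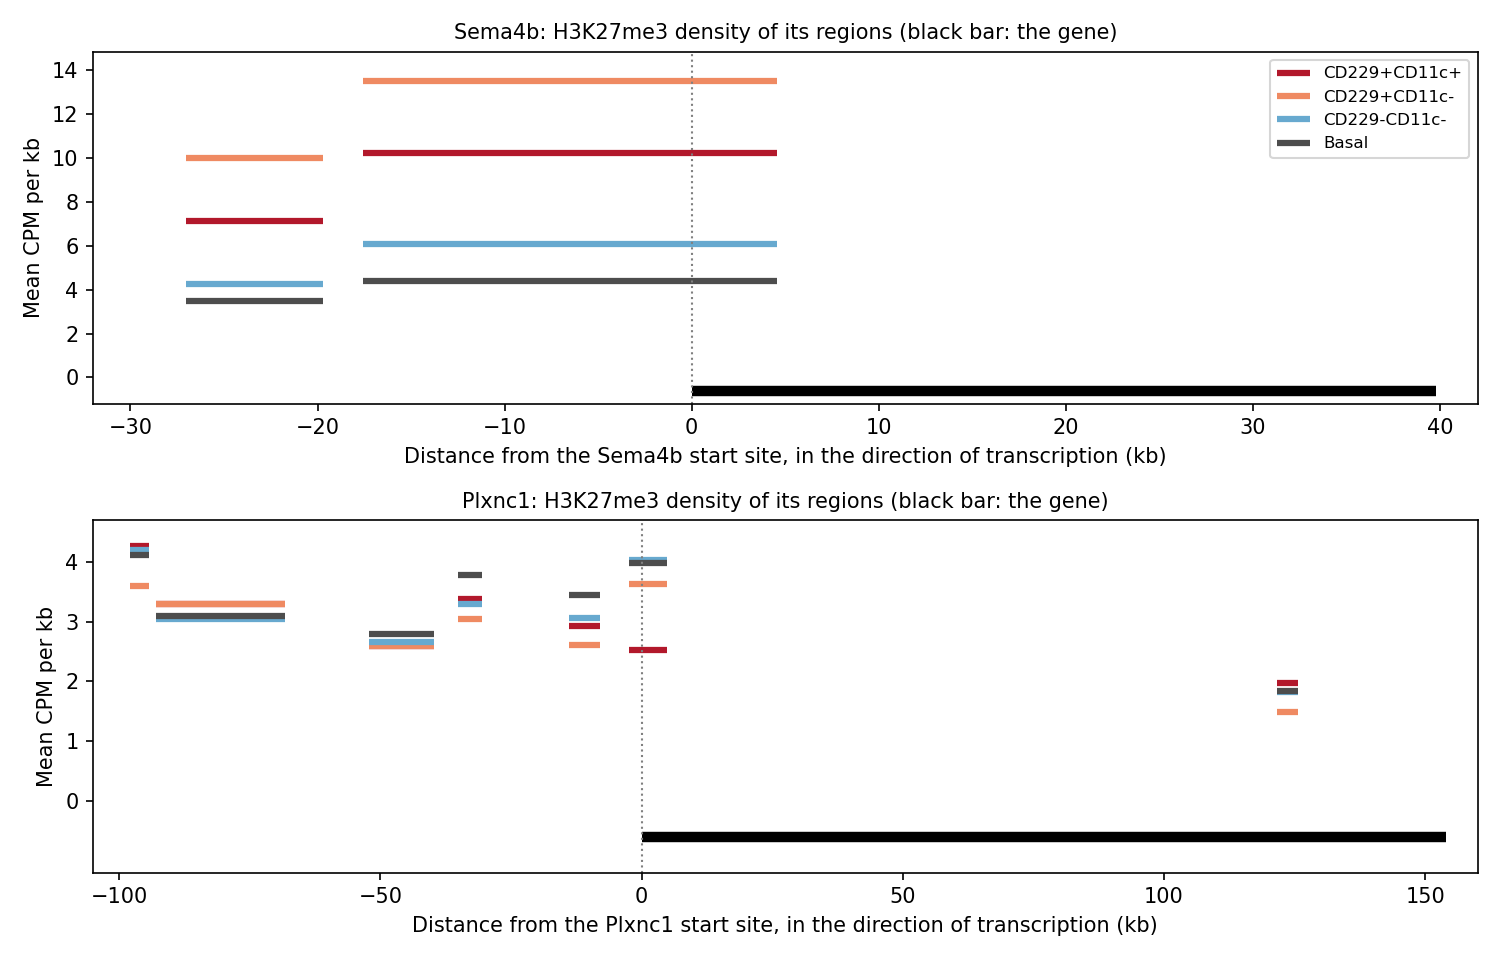
Mean H3K27me3 density of each Sema4b and Plxnc1 region in CPM per kb (vertical axis), against distance from the start site in the direction of transcription in kb. Each horizontal bar spans a region and is coloured by group, bars of nearly equal height lie over each other, and the black bar marks the gene. The 22.1 kb Sema4b region is at 13.5 CPM per kb in CD229+CD11c- and 4.41 in Basal microglia.

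The authors' deposited table of basal enrichment came from other basal libraries, replicates 1 and 2, set against 2 inputs. In the authors' deposited table the log2 enrichment over input was 1.79 at the broad Sema4b region, higher than 77.3% of 26325 regions, and 1.11 at the other Sema4b region, higher than 5.8%. The Plxnc1 start-site region had 2.06 in the authors' deposited table, higher than 89.3% of regions, and the other Plxnc1 regions had 1.07 to 1.46. The median over all regions in the authors' deposited table was 1.49. In basal microglia, then, the start-site regions of both genes were enriched above the median region, and the remaining 7 regions were below it.

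Libraries held 8934801 to 11362168 tags in the regions in CD229+CD11c+, 9031448 to 10986803 in CD229+CD11c-, 7740002 to 9982607 in CD229-CD11c- cells and 9742663 to 11175711 in Basal microglia. The 9 regions held 50 to 2983 tags per library. CD229-CD11c- replicate 3 stood apart from its group. Its Pearson r of log2 CPM over all regions was 0.965 to 0.966 with the other 2 libraries of that group, which had 0.987 with each other, and 0.983 with Basal replicate 3. Replicate 3 of every group is the library whose title lacks the PE150 tag. In CD229+CD11c- it had 0.977 and 0.979 with the tagged libraries, which had 0.987 with each other. In CD229+CD11c+ it had 0.981, against 0.986, and in Basal 0.983 to 0.984, against 0.986. Differences of the Sema4b regions and the Plxnc1 start-site region from CD229-CD11c-, and list counts in comparisons with that group, are given with and without CD229-CD11c- replicate 3. None of 7 microglial genes with a matched RefSeq promoter, from a list of 11 such as P2ry12 and Cx3cr1, had that promoter in an H3K27me3 region. All 6 neuronal, 4 matched lymphocyte and 2 matched endothelial marker genes did. So did 2 of 3 matched astrocyte, 2 of 3 oligodendrocyte lineage and 1 of 4 peripheral macrophage genes. The regions were called from Basal replicates 1 and 2, so these overlaps do not describe the makeup of the counted libraries. In these bulk libraries, fewer cells carrying the mark and less mark per cell cannot be told apart.

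At the broad Sema4b region, H3K27me3 was densest in CD229+CD11c- microglia. Normalised tag levels (CPM, tag counts scaled to the library's tags in regions) were 221, 205 and 251 in the CD229+CD11c+ libraries, 278, 281 and 335 in CD229+CD11c-, 113, 119 and 172 in CD229-CD11c-, and 107, 90.4 and 95.0 in Basal. The groups did not overlap in any pairing: every CD229+CD11c- library was above every CD229+CD11c+ library, those were above every CD229-CD11c- library, and all of these were above the Basal libraries. The means were 226 ± 23.4 CPM in CD229+CD11c+, 298 ± 31.8 in CD229+CD11c-, 135 ± 32.4 in CD229-CD11c- cells and 97.4 ± 8.41 in Basal microglia (SD, n = 3 each).

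On the log2 scale of the edgeR fit, the broad Sema4b region differed from Basal by 1.22 ± 0.13 (SE) in CD229+CD11c+, a fold of 2.32, and by 1.61 ± 0.13 in CD229+CD11c-, a fold of 3.06. These were the 10th and the 9th highest fold changes of all 26326 regions in their comparisons. As the gene was chosen with these values known, the ranks carry no weight of their own. The difference in CD229-CD11c- was 0.47 ± 0.13, a fold of 1.38, and it was 0.25 without CD229-CD11c- replicate 3, the highest library of that group. Within the cuprizone subsets, CD229+CD11c- exceeded CD229-CD11c- by 1.14 ± 0.13 and CD229+CD11c+ exceeded it by 0.74 ± 0.13, and without CD229-CD11c- replicate 3 the differences were 1.36 and 0.96. CD229+CD11c+ was 0.40 ± 0.12 lower than CD229+CD11c-. Leaving out any library kept the difference from Basal between 1.13 and 1.29 in CD229+CD11c+ and between 1.52 and 1.68 in CD229+CD11c-.

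The 7.33 kb upstream Sema4b region followed the same order among the CD229+ groups. Its CPM were 49.8, 50.9 and 56.3 in CD229+CD11c+, 70.6, 68.5 and 80.7 in CD229+CD11c-, 34.4, 26.6 and 32.2 in CD229-CD11c-, and 28.6, 21.3 and 26.8 in Basal libraries. The CD229+CD11c- libraries were above the CD229+CD11c+ libraries, and these above all libraries of CD229-CD11c- and Basal, which overlapped each other. The means were 52.4 ± 3.48 CPM in CD229+CD11c+, 73.3 ± 6.52 in CD229+CD11c-, 31.1 ± 4.00 in CD229-CD11c- cells and 25.6 ± 3.79 in Basal microglia (SD, n = 3 each).

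Against Basal, the log2 difference at the upstream Sema4b region was 1.03 ± 0.11 in CD229+CD11c+, 1.52 ± 0.11 in CD229+CD11c- cells and 0.29 ± 0.12 in CD229-CD11c-. Against CD229-CD11c- it was 0.75 ± 0.11 in CD229+CD11c+ and 1.23 ± 0.11 in CD229+CD11c-, and 0.77 and 1.26 without CD229-CD11c- replicate 3. CD229+CD11c+ was 0.48 ± 0.11 lower than CD229+CD11c-. Over the 12 libraries, the log2 CPM of the pair of Sema4b regions had a Pearson r of 0.964, which describes neighbouring chromatin in shared libraries. The broad region took 81.1% of the Sema4b tags in CD229+CD11c+, 80.2% in CD229+CD11c-, 80.9% in CD229-CD11c- cells and 79.2% in Basal, so both regions kept nearly the same shares.

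Per kb, the broad Sema4b region held 10.2 CPM in CD229+CD11c+, 13.5 in CD229+CD11c-, 6.10 in CD229-CD11c- cells and 4.41 in Basal microglia. The upstream region held 7.15, 10.0, 4.24 and 3.49 CPM per kb in the same groups. The median of all regions was 2.95, 2.88, 3.00 and 3.00 CPM per kb, so Sema4b chromatin was above the median tag density in every group, Basal included. Input was not subtracted from these densities. In the authors' deposited table the upstream region had a log2 enrichment over input of 1.11, below the median of 1.49. Averaged over the 12 libraries, the broad region was denser than 99.9% and the upstream region than 98.8% of regions. That average includes the CD229+ libraries, in which both were highest.

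**Figure D2:**
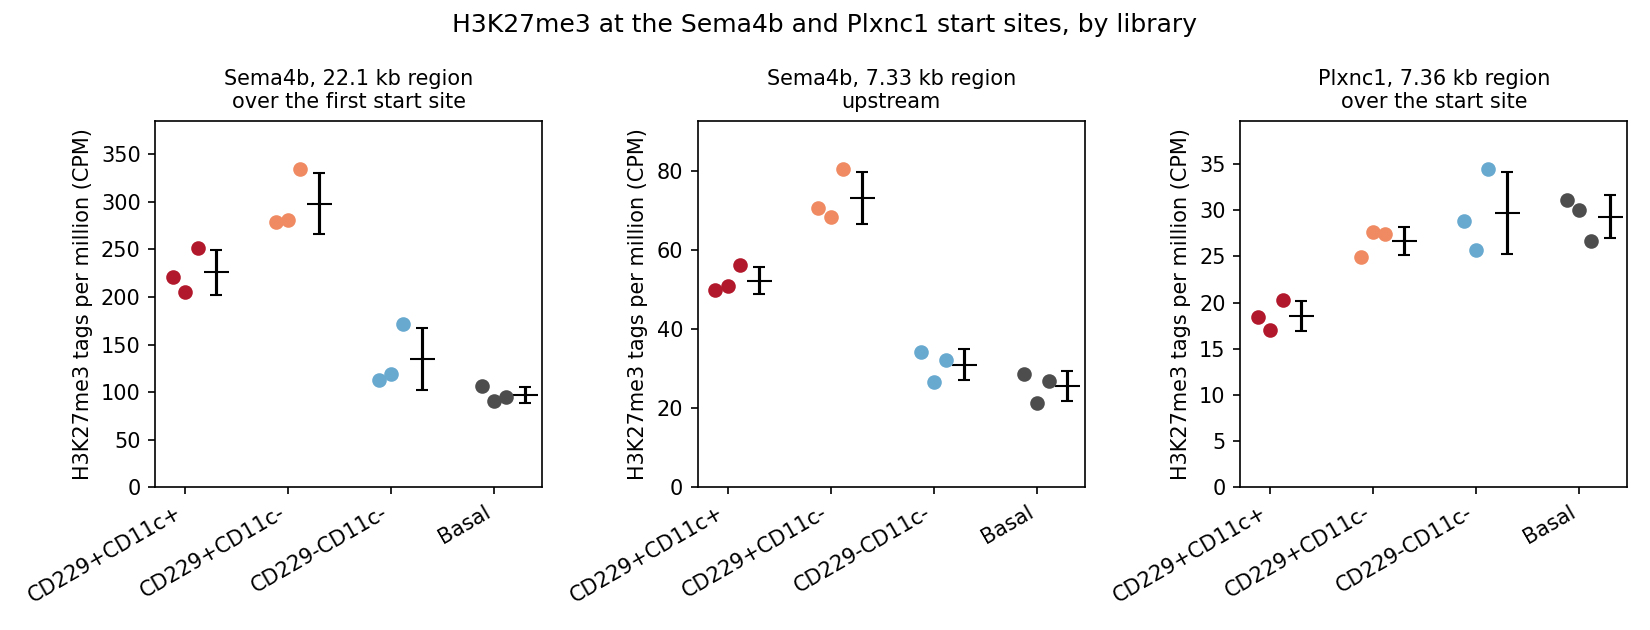
CPM of the Sema4b start-site region, the upstream Sema4b region and the Plxnc1 start-site region in each of the 12 libraries (points), with the mean and SD of the 3 libraries of each group beside them. Both Sema4b regions are highest in CD229+CD11c-, and the Plxnc1 region is lowest in CD229+CD11c+, at 17.0 to 20.3 CPM.

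At the Plxnc1 start-site region, H3K27me3 was lowest in CD229+CD11c+ microglia. Its CPM were 18.4, 17.0 and 20.3 in CD229+CD11c+, 25.0, 27.7 and 27.4 in CD229+CD11c-, 28.9, 25.7 and 34.5 in CD229-CD11c-, and 31.1, 30.1 and 26.7 in Basal libraries. All 3 CD229+CD11c+ libraries were below the other 9, and the other 3 groups overlapped each other. The means were 18.6 ± 1.61 CPM in CD229+CD11c+, 26.7 ± 1.48 in CD229+CD11c-, 29.7 ± 4.44 in CD229-CD11c- cells and 29.3 ± 2.33 in Basal microglia (SD, n = 3 each).

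The log2 difference of the Plxnc1 start-site region in CD229+CD11c+ was -0.65 ± 0.12 against Basal, a fold of 0.634, -0.68 ± 0.12 against CD229-CD11c-, and -0.52 ± 0.13 against CD229+CD11c-. Against Basal it was -0.13 ± 0.12 in CD229+CD11c- and 0.03 ± 0.12 in CD229-CD11c-. CD229+CD11c- differed from CD229-CD11c- by -0.16 ± 0.12. Without CD229-CD11c- replicate 3, CD229+CD11c+ differed from that group by -0.55 and CD229+CD11c- by -0.04. Leaving out any library kept the CD229+CD11c+ difference between -0.72 and -0.59 against Basal, and between -0.77 and -0.55 against CD229-CD11c-. Per kb the region held 2.52 CPM in CD229+CD11c+, below the median of all regions there, against 3.63 in CD229+CD11c-, 4.04 in CD229-CD11c- cells and 3.98 in Basal microglia, all above their medians.

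The 6 other Plxnc1 regions varied less between groups. Their log2 differences from Basal ran from -0.40 to 0.11 over the 3 cuprizone subsets. The longest, 24.7 kb at 80.6 kb upstream, had 72.5 to 93.1 CPM in CD229+CD11c+, 77.5 to 83.8 in CD229+CD11c-, 70.1 to 79.0 in CD229-CD11c- cells and 72.8 to 78.7 in Basal libraries, and no pair of groups was free of overlap. The nearest, 10.9 kb upstream, had 13.1 to 20.8 CPM in CD229+CD11c+, 14.6 to 16.0 in CD229+CD11c-, 14.9 to 19.6 in CD229-CD11c- cells and 19.2 to 20.8 in Basal libraries. There CD229+CD11c- lay below Basal without overlap, by -0.40 ± 0.15. Of all regions, 15% lay below Basal without overlap in that comparison.

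The intronic Plxnc1 region was the weakest, with 6.99 to 9.20 CPM in CD229+CD11c+, 5.61 to 6.56 in CD229+CD11c-, 6.04 to 9.28 in CD229-CD11c- cells and 6.73 to 8.37 in Basal libraries. CD229+CD11c- lay below Basal there by -0.30 ± 0.20, and CD229+CD11c+ lay above CD229+CD11c- by 0.41 ± 0.20, without overlap in either case. Of all regions, 15% and 8.15% did so in these comparisons. The regions 32.8, 46.0 and 96.1 kb upstream had 11.2 to 17.9, 28.2 to 39.0 and 11.6 to 17.7 CPM over the 12 libraries, and no pair of groups was free of overlap at them.

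Because Plxnc1 has several regions, the start-site level can also be read as a share within each library, which no scaling between libraries changes. The start-site region took 9.98 ± 1.08% of all Plxnc1 tags in CD229+CD11c+, against 14.2 ± 0.34% in CD229+CD11c-, 15.4 ± 2.10% in CD229-CD11c- cells and 14.7 ± 1.04% in Basal libraries (SD, n = 3 each). The summed Sema4b tags divided by the summed Plxnc1 tags gave 1.49 ± 0.14 in CD229+CD11c+, 1.97 ± 0.14 in CD229+CD11c-, 0.858 ± 0.159 in CD229-CD11c- cells and 0.616 ± 0.053 in Basal. Over the 12 libraries the log2 CPM of the broad Sema4b region and the Plxnc1 start-site region had a Pearson r of -0.398, given as a description of libraries that share groups.

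**Figure D3:**
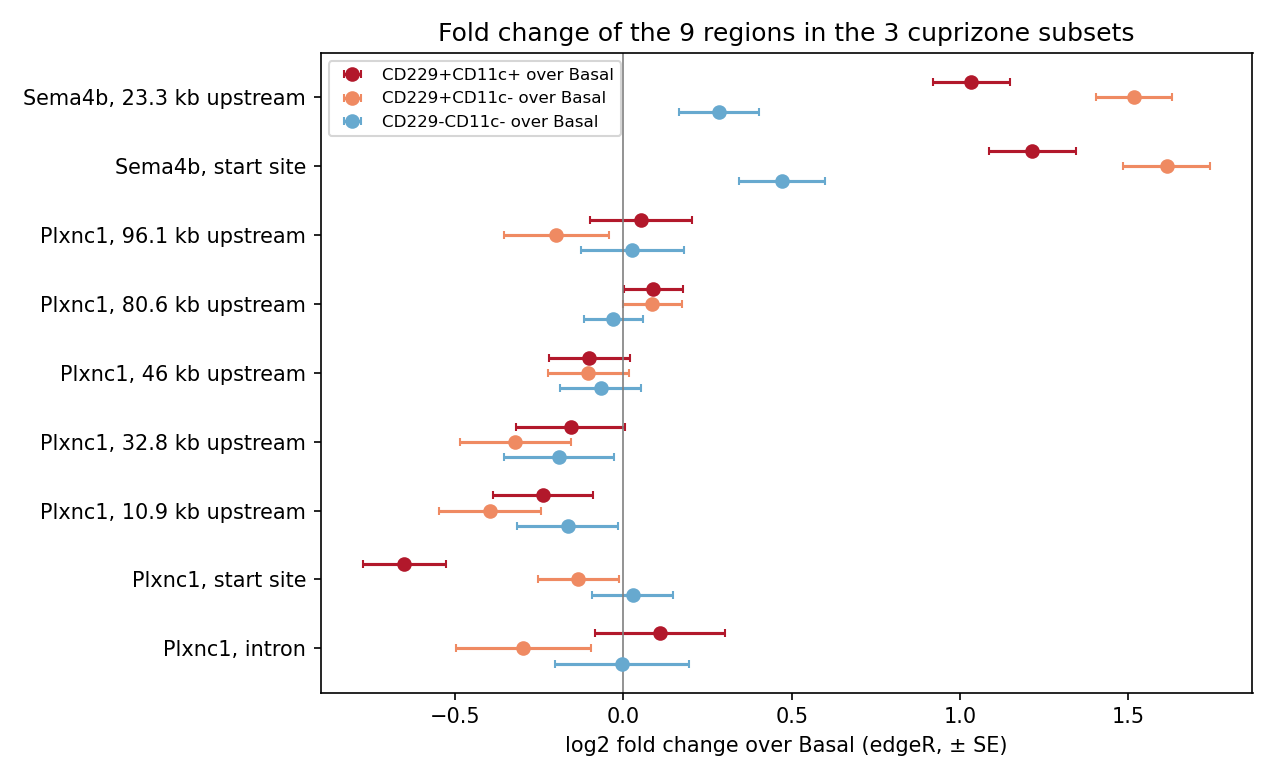
Log2 fold change over Basal, with its SE, of the 2 Sema4b and 7 Plxnc1 regions in CD229+CD11c+, CD229+CD11c- and CD229-CD11c- microglia (n = 3 per group). The Sema4b points of the CD229+ subsets lie above 1, and among the Plxnc1 regions the start site in CD229+CD11c+ is lowest, at -0.65.

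Counted over the genes, both Sema4b regions lay above Basal without overlap in each of the CD229+ subsets. Over all regions, 14.7% lay above Basal in this way in CD229+CD11c+ and 16% in CD229+CD11c-. Of the 7 Plxnc1 regions, 1 lay below Basal without overlap in CD229+CD11c+, where 12.9% of all regions did, and 2 in CD229+CD11c-, where 15% did. In CD229-CD11c- 1 Sema4b region lay above Basal, where 4.19% of all regions did, and 0 Plxnc1 regions lay below, where 4.42% did. Against CD229-CD11c-, both Sema4b regions lay above in CD229+CD11c+ (7.5% of all regions) and in CD229+CD11c- (12.2%), and 1 Plxnc1 region lay below in CD229+CD11c+ (7.1%) and 0 in CD229+CD11c- (10.6%). In CD229+CD11c+ against CD229+CD11c-, both Sema4b regions and 1 Plxnc1 region lay below (11.1% of all regions) and 1 Plxnc1 region above (8.15%). Since the genes were picked from these contrasts, the counts carry no weight of their own.

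The titles of 2 libraries per group carry a PE150 tag and those of the third do not, and the differences were recomputed within each set. In CD229+CD11c+, the broad Sema4b region differed from Basal by 1.20 among tagged and 1.23 among untagged libraries. In CD229+CD11c- it differed by 1.59 and 1.65, and in CD229-CD11c- by 0.32 and 0.69. The upstream Sema4b region gave 1.07 and 0.97 in CD229+CD11c+, and 1.53 and 1.49 in CD229+CD11c-. The Plxnc1 start-site region gave -0.67 and -0.61 in CD229+CD11c+ against Basal, and -0.62 and -0.76 against CD229-CD11c-. The intronic Plxnc1 region, by contrast, differed between CD229+CD11c+ and CD229+CD11c- by 0.24 among tagged and 0.69 among untagged libraries, with 1 untagged library per group.

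The other regions counted around Sema4b differed from Basal by less than the Sema4b regions did. Sema4b was chosen with its differences known, so smaller ones nearby carry no weight of their own. Only regions called in Basal replicates 1 and 2 were counted, so how far the difference extends between them was not measured. Within 500 kb of the Sema4b regions lay 22 regions nearest to other genes. Their log2 differences from Basal ran from -0.53 to 0.20 in CD229+CD11c+, where edgeR's quasi-likelihood test with Benjamini-Hochberg adjustment called none of them, and from -0.29 to 0.54 in CD229+CD11c-. The nearest on the side of lower coordinates was a Zfp710 region 150 kb away, which was not called in any comparison. The nearest on the other side was a Ttll13 region 57.9 kb away, with 24.4 ± 1.27 CPM in CD229+CD11c- and 16.8 ± 1.91 in Basal (SD, n = 3 each). It rose in CD229+CD11c- by 0.54 ± 0.13 (adjusted p = 0.0062, edgeR quasi-likelihood), and against CD229-CD11c- by 0.66 (adjusted p = 0.00211, edgeR quasi-likelihood). A Mesp1 region 356 kb away, by a gene for a mesoderm transcription factor, rose in CD229+CD11c- by 0.34 (adjusted p = 0.00254, edgeR quasi-likelihood), a call lost with loess offsets, at 0.19 (adjusted p = 0.0926).

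Within 500 kb of the Plxnc1 regions lay 9 regions of other genes, the nearest 1.45 kb from the outermost upstream region, nearest to Gm29684, and 196 kb beyond the intronic region, nearest to Mir7211. Neither was called in any comparison. The log2 differences of these 9 regions from Basal ran from -0.13 to 0.20 in CD229+CD11c+. None was as low as the Plxnc1 start-site region. Plxnc1 was chosen with its values known, so that order carries no weight of its own. A region of Socs2, which encodes a suppressor of cytokine signalling, lay 371 kb away and rose by 0.78 in CD229+CD11c- (adjusted p = 0.0102, edgeR quasi-likelihood), at 33.8 ± 6.46 CPM against 19.7 ± 6.24 in Basal (SD, n = 3 each). That call was lost without Basal replicate 4 and without Basal replicate 5.

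**Figure D4:**
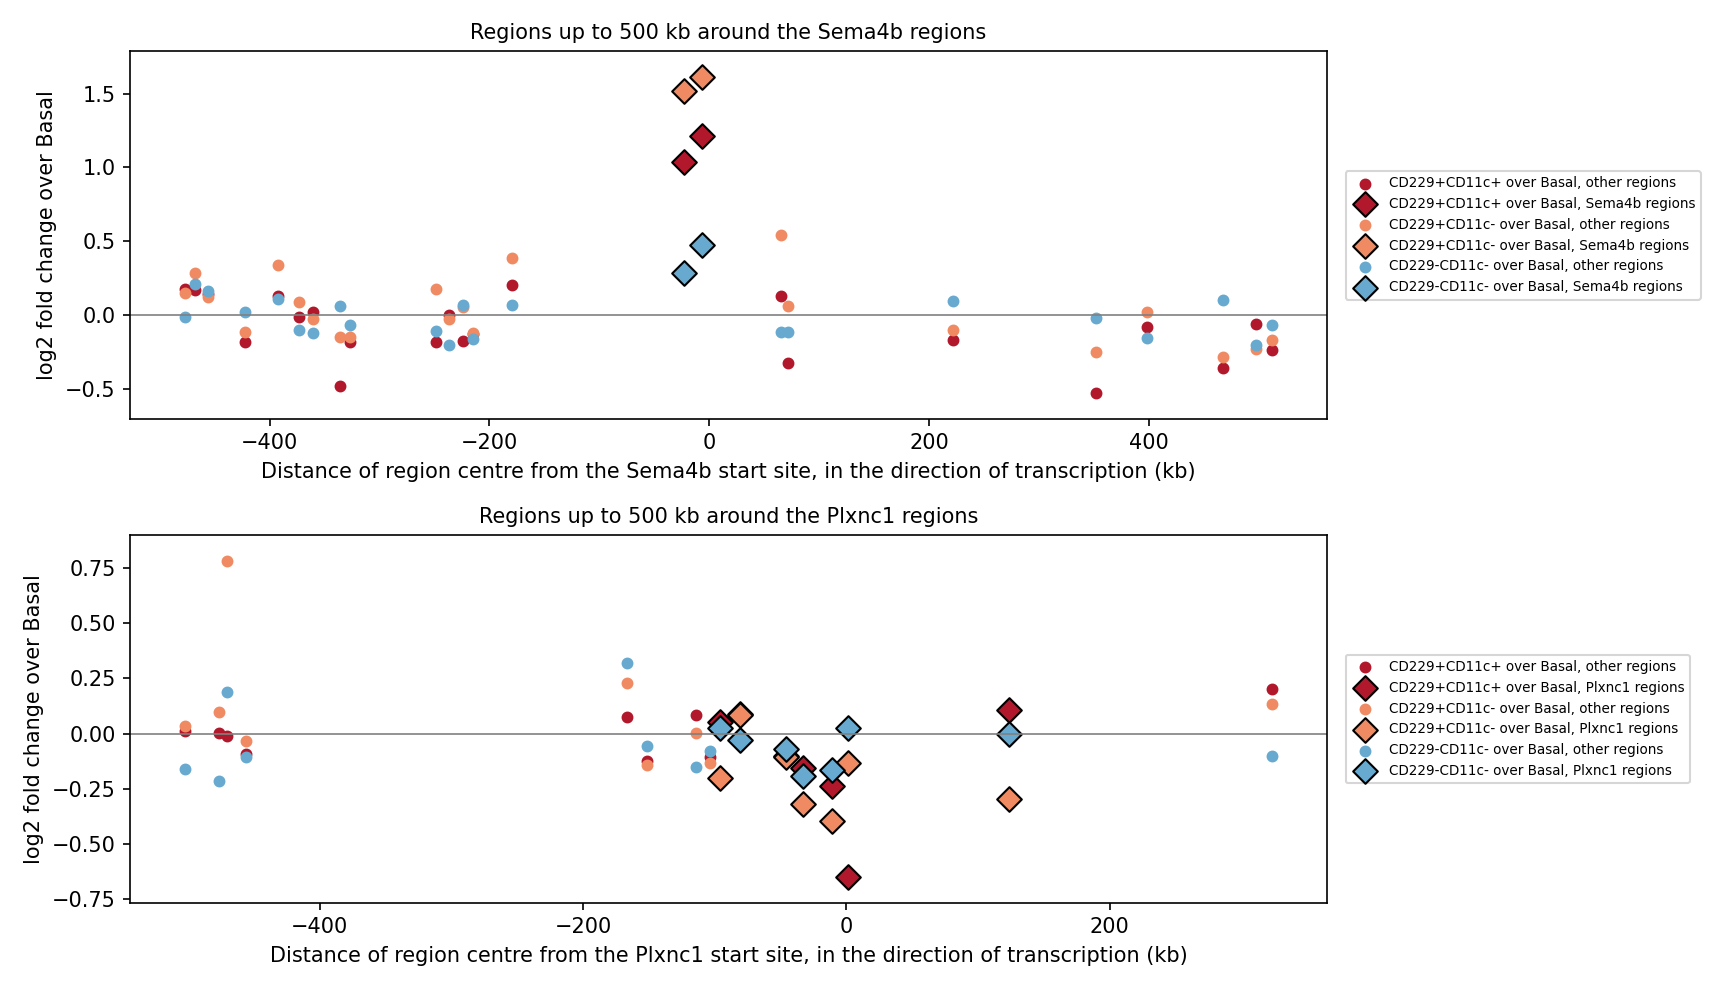
Log2 fold change over Basal of the Sema4b and Plxnc1 regions (diamonds) and of the regions of other genes within 500 kb (circles), against distance from the start site in kb, for the 3 cuprizone subsets. Around Sema4b the circles reach 0.54 and the diamonds 1.61, and around Plxnc1 the lowest point is the start-site diamond of CD229+CD11c+.

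The rest of the semaphorin system was read from a list of 29 other genes, 19 semaphorins, 8 plexins and 2 neuropilins. Of these, 17 were the nearest gene of a region, with 45 regions in all, and neither neuropilin, the co-receptors of class 3 semaphorins, had any. Sema4b and Plxnc1 included, 26 of the 31 genes matched a RefSeq promoter, and 14 had a promoter inside a region. Among the 14 was Sema7a, the ligand of plexin C1 in the textbook pair. Of the other class 4 semaphorins in the list, Sema4f had a promoter in a region and was the nearest gene of 2, whereas Sema4a, Sema4c, Sema4d and Sema4g had neither. Since regions were called in basal microglia, genes without one were not measured in the cuprizone subsets.

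In CD229+CD11c- against Basal, 14 of the 45 list regions were called, 11 higher and 3 lower, where 13% of all regions were called, 9.52% higher and 3.47% lower. The list's median log2 difference was 0.08, against -0.03 over all regions. Scaling to total counts moved the median of all regions to -0.16 in that comparison, and the list then had 8 regions higher and 8 lower, with a median of -0.06. Over all regions the same scaling turned 2506 higher and 913 lower into 1578 and 3789. The 9 called regions within 50 kb of a start site were all higher, with a median of 0.21 over the list regions that near. The shares and median over all regions include those farther from start sites, so they are no background for this subset. Whether other genes' regions that near behaved alike was not tested.

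Among plexins, 6 of 12 regions rose in CD229+CD11c- and none fell. The Plxna1 region, by the gene of a receptor of class 3 and class 6 semaphorins, had 1120 ± 36.4 CPM in CD229+CD11c- and 701 ± 33.3 in Basal (SD, n = 3 each), a log2 difference of 0.67 ± 0.06 (adjusted p = 4.53e-07, edgeR quasi-likelihood). Plxnb1, the gene of the Sema4d receptor plexin B1, rose by 0.62 ± 0.09 (adjusted p = 6.98e-05, edgeR quasi-likelihood). Plxna4, by the gene of another plexin of class A, rose by 0.42 ± 0.07 (adjusted p = 0.000185, edgeR quasi-likelihood), a call lost with loess offsets, at 0.08. These Plxna1 and Plxna4 regions were centred at -39.5 and -127 kb from the start sites, and the Plxnb1 region at 3.39 kb. With total-count scaling, and with loess offsets, the split of the plexin regions was 5 higher and 1 lower.

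Among the other semaphorins, 5 of 33 regions rose and 3 fell in CD229+CD11c-. Sema6b, by a transmembrane semaphorin gene, had 155 ± 10.4 CPM in CD229+CD11c- and 93.0 ± 6.18 in Basal (SD, n = 3 each), higher by 0.74 ± 0.08 (adjusted p = 1.55e-06, edgeR quasi-likelihood). Sema3f, by the gene of a secreted ligand of neuropilin-2, rose by 0.76 ± 0.10 (adjusted p = 1.95e-05, edgeR quasi-likelihood), and Sema6c by 0.63 ± 0.12 (adjusted p = 0.00065, edgeR quasi-likelihood). The regions that fell were all nearest to Sema6a, another transmembrane semaphorin gene, and lay 67.2, 116 and 139 kb downstream of its start site. The strongest of them fell by 0.70 ± 0.13 (adjusted p = 0.000619, edgeR quasi-likelihood) and another by 0.47 ± 0.09 (adjusted p = 0.00082, edgeR quasi-likelihood). With total-count scaling the semaphorin split was 3 higher and 7 lower.

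In CD229+CD11c+ against Basal, 7 of the 45 list regions were called, 6 higher and 1 lower, where 5.79% of all regions were called, 4.33% higher and 1.47% lower. The list median was -0.003, against -0.01 over all regions. Sema6b rose by 0.43 (adjusted p = 0.00233), Plxna1 by 0.35 (adjusted p = 0.00237), Plxna4 by 0.34 (adjusted p = 0.00501) and Plxna2, by the gene of a Sema6a receptor, by 0.51 (adjusted p = 0.00993), all with edgeR's quasi-likelihood test. The Sema6b call was kept under all 20 alternatives. With loess offsets the Plxna1 and Plxna4 calls were lost, at 0.09 and 0.15, and the Plxna2 call was lost without Basal replicate 4 and without CD229+CD11c+ replicate 2. Sema5b rose by 0.40 (adjusted p = 0.0286, edgeR quasi-likelihood) and Sema3f by 0.38 (adjusted p = 0.03, edgeR quasi-likelihood), while a Sema6a region fell by 0.38 (adjusted p = 0.013, edgeR quasi-likelihood). Of 20 alternatives, 6 lost the Sema5b call and 7 the Sema3f call, total-count scaling and loess offsets among both, and 3, each leaving out a library, lost the Sema6a call. With loess offsets 4 were called, 2 each way, and with total-count scaling 7, 4 higher and 3 lower. The number ran from 3 without CD229+CD11c+ replicate 2 to 13 without CD229-CD11c- replicate 3, and was 14 in PE150-tagged libraries alone and 18, with 13 higher and 5 lower, with the tag as a covariate.

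Against CD229-CD11c-, 10 of the 45 list regions were called in CD229+CD11c-, 8 higher and 2 lower, where 8.35% of all regions were called, 6.75% higher and 1.6% lower. With total-count scaling, and with loess offsets, 6 list regions were higher and 3 lower there. Without CD229-CD11c- replicate 3, 9 were higher and 1 lower. With the replicate number as a block, 13 were higher and 2 lower, and calls over all regions were 4595 in place of 2199. In CD229+CD11c+, 1 list region was called, where 0.547% of all regions were. It was a Plxna4 region, and 12 of 22 alternatives lost its call, while other alternatives called more of the list. The replicate block called 10 list regions, 9 higher and 1 lower, and 2025 of all regions in place of 144. The PE150 covariate called 10 of the list, the DESeq2 Wald test 4, tagged libraries alone 4, and the fit without CD229-CD11c- replicate 3 called 3. In CD229+CD11c+ against CD229+CD11c-, where 0.824% were called and 0.771% were lower, Plxna1 fell by 0.33 (adjusted p = 0.0195, edgeR quasi-likelihood) and Plxnd1, by the gene of the Sema3e receptor, by 0.62 (adjusted p = 0.0456, edgeR quasi-likelihood). Both calls were lost under several alternatives, total-count scaling and loess offsets among them, whereas tagged libraries alone called 7 list regions, all lower. In CD229-CD11c- against Basal no list region and 0% of all regions were called by edgeR's quasi-likelihood test, and 0 by DESeq2, while 1103 had an unadjusted p under 0.05 in edgeR. That count depended on the libraries and the tag: 30 regions were called without CD229-CD11c- replicate 3, 33 with the PE150 covariate, and 916, of which 2 were list regions, in tagged libraries alone.

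**Figure D5:**
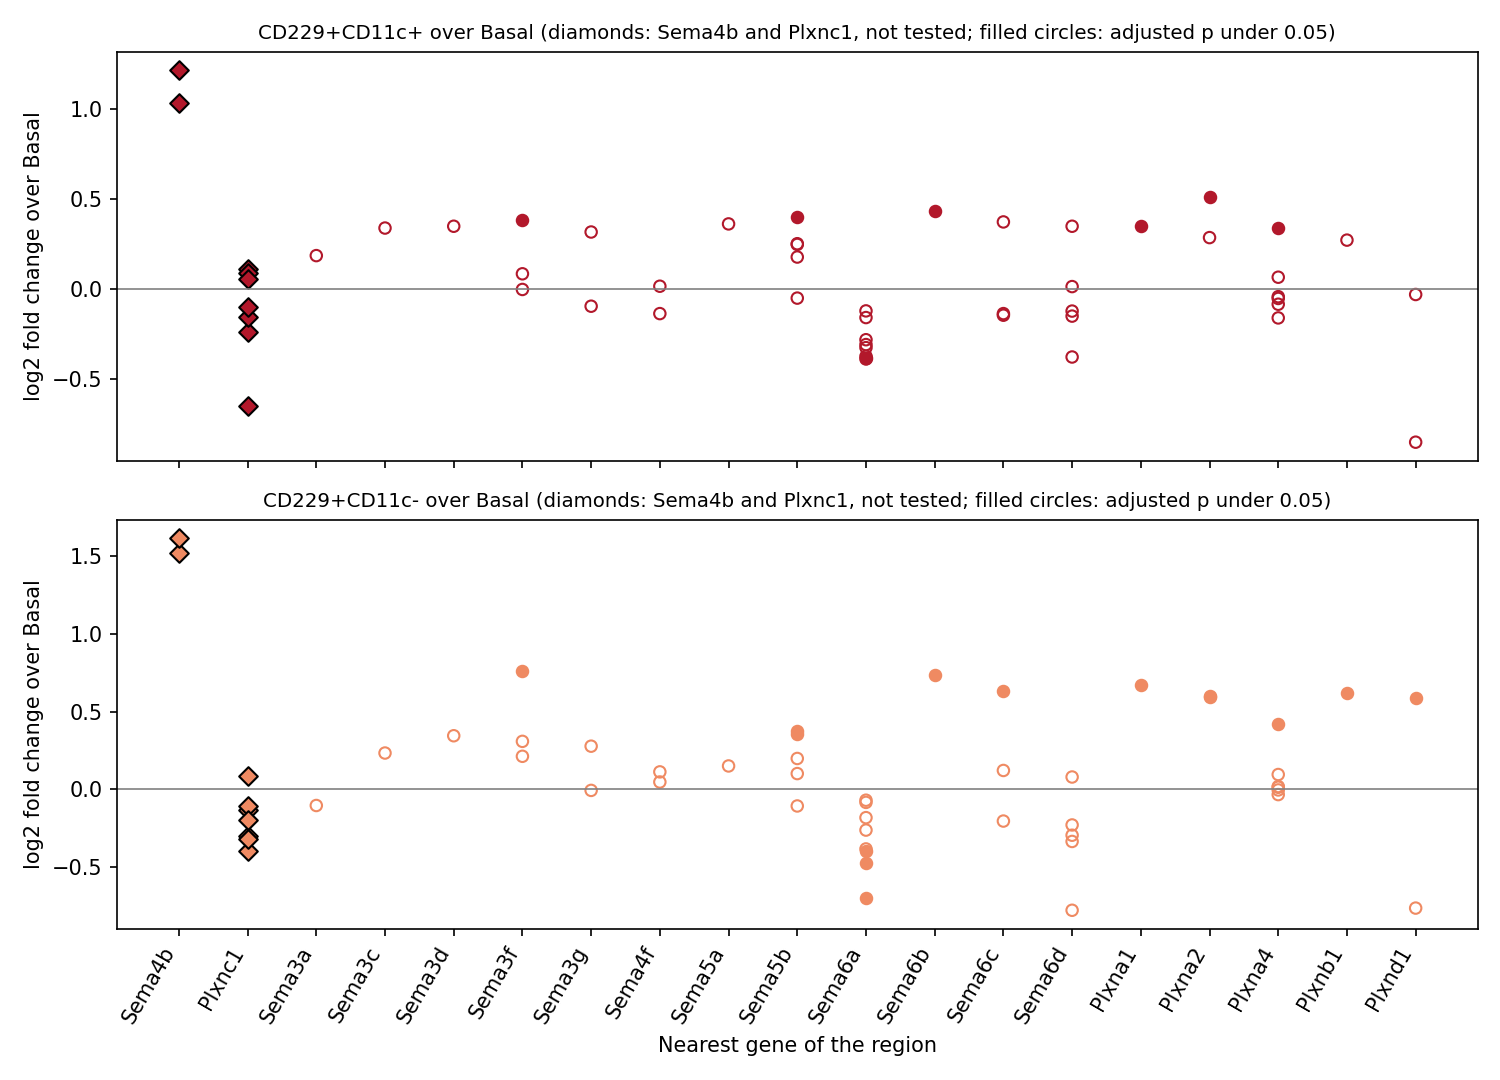
Log2 fold change over Basal of every region nearest to a semaphorin or plexin gene, in CD229+CD11c+ (upper plot) and CD229+CD11c- (lower plot). Circles are filled at an adjusted p under 0.05, and diamonds are the Sema4b and Plxnc1 regions, which were not tested. The Sema4b points lie highest in both plots, at 1.03 and 1.22 above and 1.52 and 1.61 below.

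Co-receptors and signalling partners of semaphorins made up a list of 54 genes with 96 regions. In CD229+CD11c-, 7 rose and 3 fell against Basal, where 9.52% of all regions rose and 3.47% fell, so calls in this list were no more frequent than over all regions. With total-count scaling 3 rose and 12 fell, with loess offsets 2 each. In CD229+CD11c+, 2 rose and 3 fell, where 4.33% of all regions rose and 1.47% fell, with total-count scaling 0 and 4, and with loess offsets 0 and 3. Cd72, which encodes a lymphocyte receptor of Sema4d, had the lowest fold named from these lists. Its region had 3.47 ± 1.12 CPM in CD229+CD11c+ and 11.8 ± 1.09 in Basal (SD, n = 3 each), and fell by 1.74 ± 0.26 (adjusted p = 0.000476, edgeR quasi-likelihood), a call kept under all 20 alternatives. Against CD229-CD11c- it fell by 1.48 in CD229+CD11c+ (adjusted p = 0.00923, edgeR quasi-likelihood), a call lost without CD229+CD11c+ replicate 1 or replicate 2. Ptk2, the gene of focal adhesion kinase, had a region that rose by 0.59 in CD229+CD11c- (adjusted p = 3.35e-06, edgeR quasi-likelihood), a call lost with loess offsets at 0.20 (adjusted p = 0.0543, edgeR quasi-likelihood), and another that fell by 0.57 (adjusted p = 0.00381, edgeR quasi-likelihood).

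Other guidance systems were listed for context, to be read against 9.52% of all regions higher and 3.47% lower in CD229+CD11c-, and 4.33% higher and 1.47% lower in CD229+CD11c+. In CD229+CD11c- against Basal, 10 of 50 regions of ephrins and Eph receptors rose and 3 fell, where Efnb2, the ephrin B2 gene, rose by 1.35 and Epha7 by 0.84 (adjusted p = 9.17e-06 and 6.48e-06, edgeR quasi-likelihood). With total-count scaling, 8 rose and 8 fell, and with loess offsets 8 and 4. Of 34 regions of netrins and their receptors, 10 rose and none fell, with Dscam, which encodes a netrin receptor, at 0.94 (adjusted p = 2.6e-05, edgeR quasi-likelihood), and with loess offsets 8 rose and 2 fell. Of 23 Slit and Robo regions, 4 rose and none fell, with a Robo3 region at 0.52 (adjusted p = 2.24e-05, edgeR quasi-likelihood), and with total-count scaling 3 rose and 2 fell, with loess offsets 4 and 1. In CD229+CD11c+ against Basal, 4 of 50 ephrin and Eph, 4 of 34 netrin and 3 of 23 Slit and Robo regions rose and none fell, and with total-count scaling 1 ephrin or Eph region fell. No named region of these lists rose over Basal by as much as either Sema4b region, in either CD229+ subset. Sema4b was chosen with these differences known, so this order carries no weight of its own.

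Regions whose log2 CPM followed the broad Sema4b region most closely over the 12 libraries lay near Drc1 (Pearson r 0.989), Flt3 (0.989), Adra2a (0.986), 5730435O14Rik (0.985) and Zdhhc19 (0.98). Their log2 differences from Basal were 0.50 to 1.55 in CD229+CD11c+ cells and 0.72 to 1.93 in CD229+CD11c-. Flt3 encodes a cytokine receptor of early blood cells and Adra2a an adrenergic receptor. For the 24.7 kb Plxnc1 region, the longest of that gene and the one with the highest mean CPM, the closest were Galnt9 (0.865), E030013I19Rik (0.854), Cited4 (0.851), Zfand2a (0.843) and Slc44a3 (0.839). For the Plxnc1 start-site region, a search added after its values were seen, they were Sh3pxd2b (0.942), Limd1 (0.938), Bcl10 (0.928), Dennd3 (0.921) and Serp2 (0.917), all lower in CD229+CD11c+ than in Basal by 0.25 to 0.58 on the log2 scale. All these regions were picked for their likeness over the same libraries. Their differences from Basal therefore follow from the search and are no separate result.

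Summed levels at regions near marker genes of other cell types were apart from Basal in some lists. Endothelial and peripheral macrophage sums overlapped Basal. Summed CPM of 23 regions near neuronal markers was 2280 to 2610 in CD229+CD11c+, 2260 to 2690 in CD229+CD11c-, 1950 to 2460 in CD229-CD11c- cells and 1960 to 2200 in Basal libraries. For 13 astrocyte marker regions it was 494 to 505, 526 to 545, 423 to 467 and 415 to 429 in the same groups. For 9 oligodendrocyte lineage regions it was 560 to 577, 649 to 682, 503 to 541 and 465 to 517, and for 24 lymphocyte regions 1220 to 1230, 1240 to 1320, 1080 to 1140 and 1070 to 1100. For 16 endothelial regions it was 542 to 557, 571 to 597, 572 to 582 and 531 to 594, and for 7 peripheral macrophage regions 176 to 204, 192 to 227, 171 to 223 and 191 to 204. Of the 11 microglial genes, Siglech and Sall1 alone were the nearest gene of a region, 170 to 649 kb away, and those 4 regions summed to 36.2 to 40.5, 36.1 to 40.6, 40.6 to 50 and 43.3 to 51.7. The highest astrocyte, oligodendrocyte lineage and lymphocyte sums were in CD229+CD11c- microglia, as at Sema4b, but large regions weigh most in a sum. In CD229+CD11c-, 5 of 13 astrocyte, 4 of 9 oligodendrocyte lineage and 15 of 24 lymphocyte regions had a positive log2 difference from Basal. The medians were -0.038, -0.075 and 0.086, against -0.026 over all regions. Called higher were 4, 2 and 2, and lower 1, 1 and 0, where 9.52% and 3.47% of all regions were. The part of cell makeup in the Sema4b and Plxnc1 values was not tested.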

How the data were processed

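The members and all lists were chosen with earlier results of these data known. Per the submitters' processing notes, the tools were DESeq2, HOMER, STAR 2.7.0f, fastp 0.20.0 and Bowtie2 2.3.4.1 and the builds GRCm38 and mm10, and the notes do not tie them to steps. Per the file headers, the authors called regions in HOMER from basal replicates 1 and 2 and their 2 inputs (build mm10, DESeq2 statistics, size 1250, F 2, FDR 0.05, log2 fold 1). Their deposited table gives a log2 fold over input, a p-value, a peak score on an unstated scale and, as the other units, region size and distance to the start site, and these were used as deposited. The deposited counts are raw tags per region for 12 H3K27me3 libraries over 26326 regions, with no input columns, and input was not subtracted. The authors' normalised table of the same counts was not used.

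The test on counts ran in R 4.3.3 with edgeR 4.0.16: filterByExpr, which removed 0 regions, TMM scaling, robust quasi-likelihood tests with 12 libraries and group as the only term, and Benjamini-Hochberg adjustment over all regions of each of 6 comparisons, called at an adjusted p under 0.05. The method was checked on simulated data. CPM is scaled to the TMM-adjusted total of tags in regions, and log2 CPM used a prior count of 2. The named regions were all members; the 5 closest in pattern; up to 8 called semaphorin, plexin or neuropilin regions and up to 4 of each other list with the smallest p per comparison; and the nearest and the called neighbours within 500 kb. Promoters came from RefSeq GRCm38.p6, whose main chromosomes share coordinates with mm10. Same-numbered cuprizone libraries deviated together from their group means, with r over 0.1 in every pair of both comparisons with CD229-CD11c-. For 1 pair of CD229+CD11c+ and CD229+CD11c- it was 0.083. The labels state no pairing, and the main fit, whose SE and adjusted p are given throughout, was unpaired. A replicate block among the cuprizone libraries was fitted as an alternative only. Over all, r was 0.083 to 0.457 in 9 same-numbered pairs and -0.373 to 0.248 in 18 others, and 7 of 9 libraries correlated best with their own number. Number 3 is also the untagged library, so number and tag cannot be told apart there. With 3 libraries against 3, an exact permutation test of a single region could not go below 0.1. Alternatives changed the scaling, the filter, the test (DESeq2 1.42.0), the PE150 tag, the replicate block and the libraries. Figures used Python 3.11.15 and matplotlib 3.10.9.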

Additional observations from a re-analysis of the deposited data

How the results depend on the processing

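The values for the Sema4b and Plxnc1 regions, the list and the counts of calls were recomputed as 660 values outside the runs that leave out a library. Of these, 594 stayed within the spread of replicates or within 1.5 times the count, 66 moved and 0 were labelled as reversed. Some values labelled as moved did change sign. With total-count scaling, CD229+CD11c- against Basal went from 0.08 to -0.059 for the list median. At the Plxnc1 region 80.6 kb upstream it went from 0.086 to -0.052. Counts of calls were compared by their totals alone. A changed split of higher and lower calls, such as those given below for total-count scaling, therefore did not by itself count as a move or a reversal. DESeq2 size factors and no filter moved none of them. For those that moved, the cause was not tested.

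With total-count scaling, CD229+CD11c- differed from Basal by -0.437 at the intronic Plxnc1 region, -0.272 at its start site, -0.533 at 10.9 kb and -0.052 at 80.6 kb upstream, and from CD229-CD11c- by 0.004 at 80.6 kb. The list medians became -0.059 (CD229+CD11c-) and -0.075 (CD229+CD11c+) against Basal, -0.033 (CD229+CD11c- against CD229-CD11c-) and 0.014 (CD229+CD11c+ against CD229+CD11c-). It called 5367 regions in CD229+CD11c- against Basal and 28 in CD229+CD11c+ against CD229+CD11c-, with 0 list regions in CD229+CD11c+ against either other subset. It gave 1059 higher and 1697 lower in CD229+CD11c- against CD229-CD11c-, in place of 1777 and 422, and 687 and 796 in CD229+CD11c+ against Basal, in place of 1139 and 386. With loess offsets, the broad Sema4b region in CD229+CD11c- was 1.383 above Basal, the Plxnc1 region at 80.6 kb was -0.037 from Basal and 0.013 from CD229-CD11c-, and the list medians were 0.023 for CD229+CD11c- against Basal cells and -0.01 (CD229+CD11c+ against CD229+CD11c-). Loess called 4 list regions in CD229+CD11c+ against Basal and 0 against either other subset, and 92 regions against CD229-CD11c- and 48 against CD229+CD11c-. A mean count of at least 50 called 0 and 1 list regions in CD229+CD11c+ against CD229-CD11c- and against CD229+CD11c-. The DESeq2 Wald test called 4 and 4 list regions there, and 322 and 668 regions in all.

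With the PE150 tag as a covariate, 33 regions were called in CD229-CD11c-, 5828 in CD229+CD11c- cells and 4538 in CD229+CD11c+ against Basal, 4370 and 1638 in CD229+CD11c- and CD229+CD11c+ against CD229-CD11c-, and 1920 in CD229+CD11c+ against CD229+CD11c-, with 18, 10 and 5 list regions in CD229+CD11c+ against Basal, CD229-CD11c- and CD229+CD11c-. In PE150-tagged libraries alone these counts were 916, 5532, 4274, 3309, 933 and 1397, with 2 list regions in CD229-CD11c- and 14 in CD229+CD11c+ against Basal, and 4 and 7 in CD229+CD11c+ against the other subsets. There the Plxnc1 region at 46.0 kb was -0.289 from Basal in CD229+CD11c+, the one at 80.6 kb -0.039 from CD229-CD11c-, and the intronic region -0.029 in CD229+CD11c- against CD229-CD11c- and 0.234 in CD229+CD11c+ against CD229+CD11c-. List regions within 50 kb of a start site alone had 9 and 4 calls in CD229+CD11c- and CD229+CD11c+ against Basal, medians of 0.213 and 0.247, a median of 0.182 in CD229+CD11c- against CD229-CD11c-, 0 calls in CD229+CD11c+ against CD229-CD11c-, and a median of -0.098 in CD229+CD11c+ against CD229+CD11c-.

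Leaving out each library gave 0 to 30 calls in CD229-CD11c-, 2084 to 4589 in CD229+CD11c- cells and 442 to 2901 in CD229+CD11c+ against Basal, 44 to 271 in CD229+CD11c+ against CD229-CD11c-, and 9 to 830 in CD229+CD11c+ against CD229+CD11c-. The highest counts were all without CD229-CD11c- replicate 3, and the lowest in both CD229+ subsets against Basal were without Basal replicate 4. List calls ran from 3 to 13, 0 to 3 and 0 to 5 in CD229+CD11c+ against Basal, CD229-CD11c- and CD229+CD11c-, and list medians from -0.093 to 0.003 in CD229-CD11c- cells and -0.048 to 0.055 in CD229+CD11c+ against Basal. Of 79 calls at named list and neighbour regions, loess offsets lost 25 and total-count scaling 18.

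A replicate block in the 9 cuprizone libraries gave 4595, 2025 and 2199 calls in CD229+CD11c- against CD229-CD11c-, CD229+CD11c+ against CD229-CD11c- and CD229+CD11c+ against CD229+CD11c-, with 10 and 5 list regions in the last 2, and lost none of the named calls. The same libraries with no block, chosen after seeing the data, had 0 and 1. No paired analysis was possible because Basal and cuprizone libraries share only number 3, for the comparisons with Basal. Depth limits the intronic Plxnc1 region most, at 50 to 104 tags per library.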
